A study of Mus musculus with 6 samples.

Results

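Fibronectin, matricellular proteins and the elastic matrix were followed through 10 genes, Fn1, Postn, Tnc, Sparc, Thbs1, Thbs4, Fbln1, Fbln2, Eln and Lox, in calf muscle of mice that overexpress integrin alpha7. A probe set, the group of short array probes that reads 1 transcript region, was counted for a gene when the platform annotation gave it that gene symbol and no other. By this rule the 10 genes held 21 of the 45037 probe sets on the Affymetrix array. The series asked how extra integrin alpha7 alters transcript levels in skeletal muscle. The transgenic group comprised 3 arrays of integrin alpha7 transgenic mice, and the wild type group comprised 3 arrays of control mice whose titles carry the word "Intronic", which the labels do not explain. All animals were females of 5 weeks, non-fasted, on an SJ6/C57BL6 background, and RNA came from gastrocnemius and soleus together. Each array read RNA pooled from 6 animals, so the 18 mice of each genotype gave 3 pools. The labels do not name the promoter that drives the transgene, nor how many founder lines were used.

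Fibronectin is a large adhesive glycoprotein that cells bind through integrins and assemble into fibrils. Matricellular proteins such as periostin, tenascin-C, SPARC and the thrombospondins are secreted into the matrix, where they modulate adhesion and growth factor signalling more than they bear load. Elastic fibres consist of an elastin core, cross-linked by lysyl oxidase and laid on a microfibril scaffold, and fibulins bind to them. In skeletal muscle these genes are expressed largely by the connective tissue cells between fibres, in tendon and in vessel walls, and they are known to rise during repair and fibrosis.

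Signals are the authors' linear values in arbitrary units, scaled so that the mean after trimming 2% of probe sets at each end was 150.0 on every array. Differences are transgenic minus wild type on the scale of log2(signal + 16), which understates the change of dim probe sets. The probe set of Itga7 read 2498, 2144 and 2072 on the transgenic arrays, against 254, 308 and 313 on the wild type arrays, a 7.32-fold difference that fits the labels (limma, adjusted p = 1.67e-07). All 10 markers of skeletal muscle fibres lay above the filter on dim probe sets, and their summed signal was 150184 to 158995 on transgenic and 161457 to 166556 on wild type arrays. Summed endothelial markers (9 of 9 above the filter) gave 1876 to 2040.1 in transgenic and 2056 to 2338 in wild type muscle, and macrophage markers (8 of 8) gave 4743 to 5110 in transgenic and 5180 to 5507 in wild type muscle. None of these ranges of summed signal, in which bright genes weigh most, overlapped between genotypes. Those of the fibroblast, tendon and cartilage, smooth muscle and pericyte, Schwann cell and nerve, and adipocyte markers did overlap. As means of log2(signal + 16) over the genes, muscle fibre markers overlapped too, at 13.66 to 13.80 in transgenic and 13.74 to 13.83 in wild type muscle. So did macrophage markers, at 8.503 to 8.681 in transgenic and 8.675 to 8.761 in wild type muscle. Endothelial means stayed apart, at 7.71 to 7.81 in transgenic and 7.83 to 8.03 in wild type muscle. Differences were negative for 9 of 13 tested muscle fibre, 9 of 11 endothelial and 9 of 10 macrophage probe sets, against 52.6% of all tested. The part of these cell types in the members' values was not tested. Transgenic replicate 3 stood apart: its correlation with each other array over the tested probe sets was 0.971 to 0.976, against 0.976 to 0.981 for every pair without it. The arrays were hybridised in 2 rounds, and the second held only transgenic replicate 3 and wild type replicate 3. No fluidics module held both genotypes, so module and genotype cannot be told apart in any comparison here. In such bulk tissue, fewer cells of a type and less RNA per cell cannot be told apart.

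No gene of this group passed the test. Of the 21 probe sets, 17 passed the filter on mean signal (above about 21.7) and were tested, and 0 had an adjusted p under 0.05 in limma, where 0.122% of the 27022 probe sets tested over the whole array did. An unadjusted p under 0.05 was reached by 2 of them, Sparc 1416589_at lower and Tnc 1416342_at higher in transgenic muscle, against 7.85% of all tested. The same 2 probe sets had arrays that did not overlap between genotypes: 1 of 17 with all transgenic arrays lower, against 7.50% of all tested, and 1 of 17 with all transgenic arrays higher, against 5.85%. The counts of members are thus close to the background. The fitted difference was negative for 13 of the 17, or 76.5%, against 52.6% of all tested, and its median was -0.09 against -0.01. Probe sets of 1 gene are not independent. Sparc gave 3 of the negative differences, and Thbs1, Fbln1, Eln and Lox gave 2 each. The 95% intervals lay within 0.5 of zero on the log2 scale for 9 of the 17 and within 1 for all 17.

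**Figure D1:**
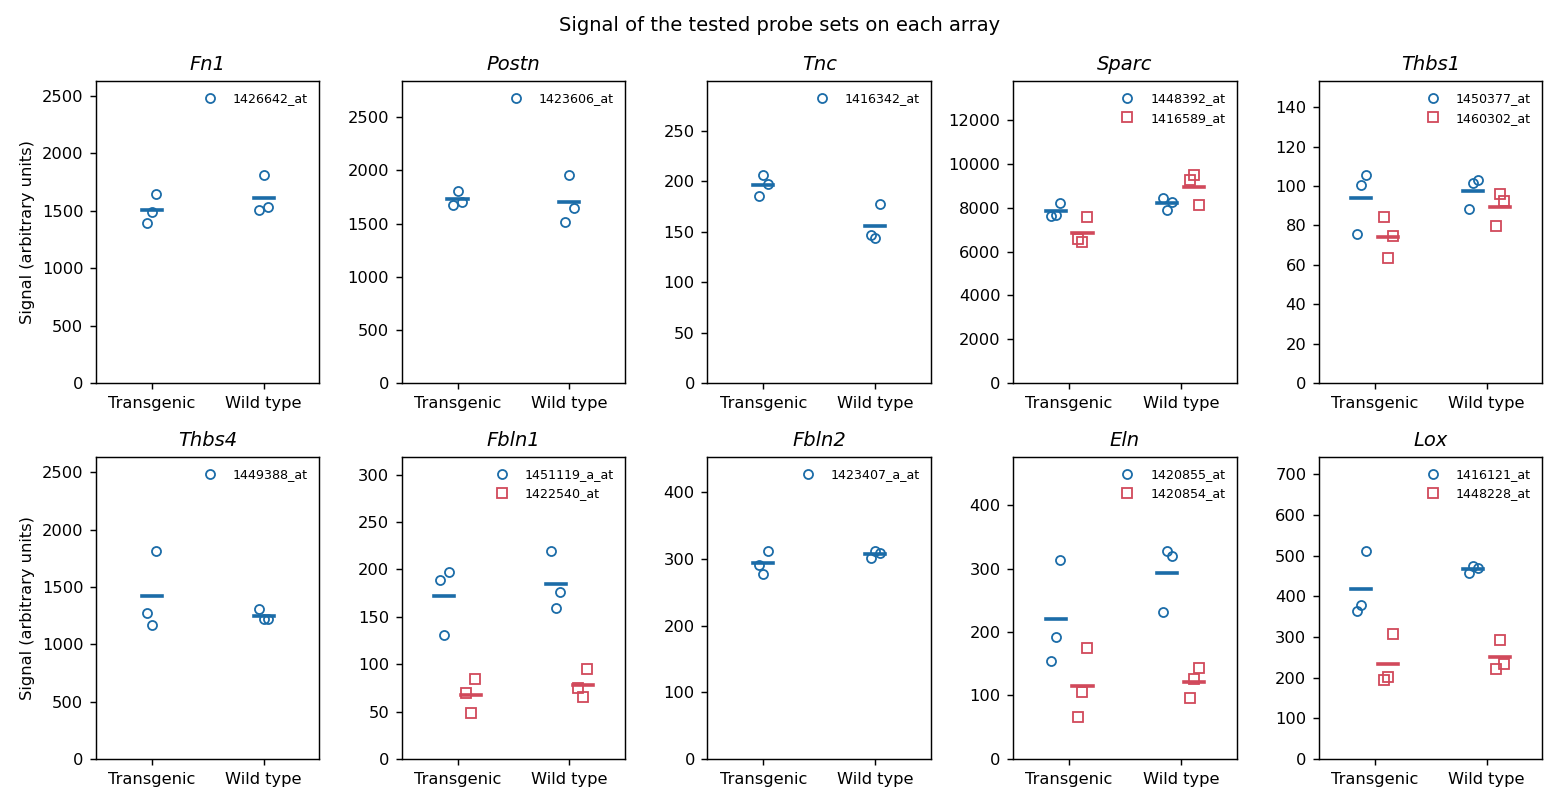
Signal (arbitrary units, linear axis from 0) of 15 tested probe sets of the 10 genes on each of the 3 transgenic and 3 wild type arrays; points are arrays, bars are group means, and colours and shapes separate probe sets of a gene. 2 dim probe sets, of Fn1 and Sparc, are left out for scale. The arrays of the genotypes do not overlap for Sparc 1416589_at and Tnc 1416342_at, and overlap in the rest.

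**Figure D2:**
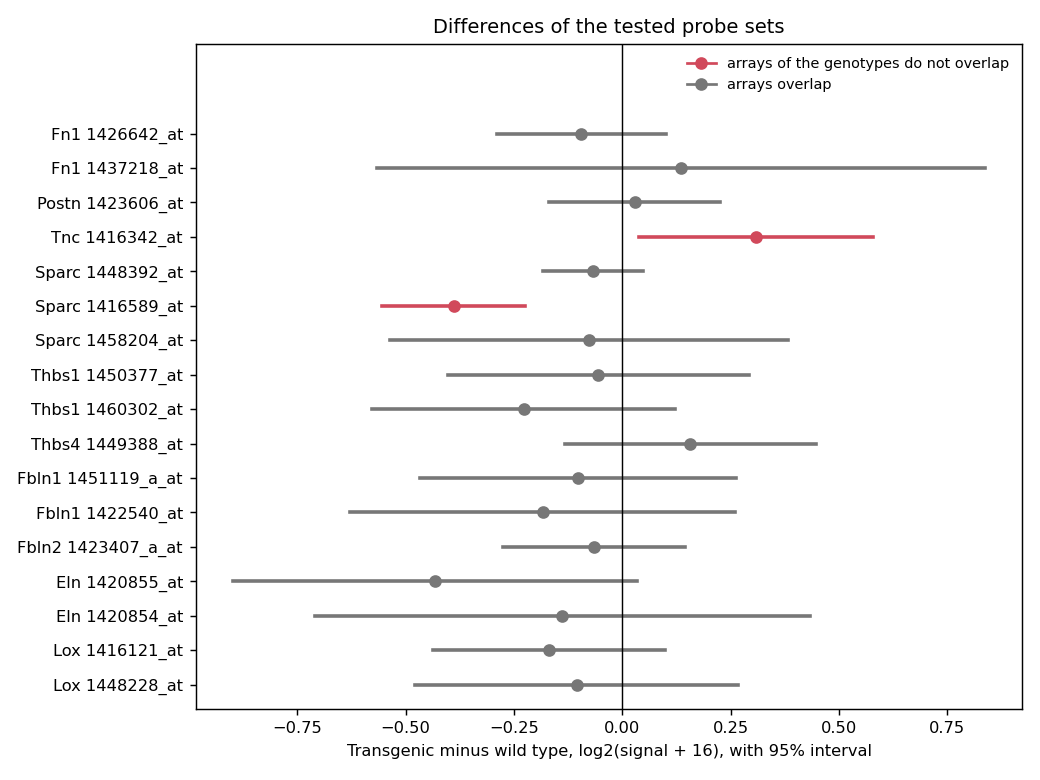
Difference of each of the 17 tested probe sets, transgenic minus wild type on the log2(signal + 16) scale, with its 95% interval from limma; red marks probe sets whose arrays do not overlap between genotypes. Only the intervals of Sparc 1416589_at (-0.55 to -0.22) and Tnc 1416342_at (0.04 to 0.58) leave out 0, before any adjustment for the number of tests.

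Fibronectin itself was read by 2 probe sets. Fn1 1426642_at gave 1394, 1487 and 1650.0 on the transgenic arrays, against 1503, 1813 and 1531 on the wild type arrays. The genotypes overlapped, and the fitted ratio was 0.937-fold with a 95% interval of 0.818 to 1.07 (limma, adjusted p = 0.841). The second, Fn1 1437218_at, was dim, with 50.1, 57.3 and 43.8 in transgenic against 57.9, 73.4 and 17.1 in wild type muscle. Wild type replicate 3 was far below the other 5 arrays here, and the fitted difference of 0.14 on the log2 scale (adjusted p = 0.952) had an interval from -0.57 to 0.84.

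Sparc, which encodes the collagen- and calcium-binding glycoprotein SPARC (osteonectin), gave the smallest p-value of the group. Sparc and Tnc were the genes whose arrays did not overlap between genotypes, and their promoters, from 250 bases before to 50 bases after the RefSeq gene start (build GRCm38.p6), are shown to place them. The Sparc window lies at chr11:55420031-55420330 on the minus strand. The Tnc window lies at chr4:64046966-64047265 on the minus strand, at the first of 2 starts listed. Capitals mark matches, on either strand, to TATAAA (the TATA box), GGGCGG (the GC box), CAGAC (a SMAD-binding element, read as GTCTG on the other strand) or TGANTCA (the AP-1 motif).
Sparc: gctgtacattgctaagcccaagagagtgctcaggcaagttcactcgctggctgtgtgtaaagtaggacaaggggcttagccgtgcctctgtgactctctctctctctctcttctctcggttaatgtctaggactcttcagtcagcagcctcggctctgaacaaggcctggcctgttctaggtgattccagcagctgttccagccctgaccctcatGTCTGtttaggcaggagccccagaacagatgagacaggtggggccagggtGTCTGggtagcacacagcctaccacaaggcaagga
Tnc: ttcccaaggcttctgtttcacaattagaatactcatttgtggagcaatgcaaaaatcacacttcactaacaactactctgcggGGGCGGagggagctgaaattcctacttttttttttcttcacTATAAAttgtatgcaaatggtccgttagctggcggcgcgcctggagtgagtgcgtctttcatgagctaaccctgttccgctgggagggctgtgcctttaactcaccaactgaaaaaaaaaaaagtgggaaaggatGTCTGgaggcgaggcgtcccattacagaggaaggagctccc
The Sparc window held CAGAC 2 times and none of the other motifs, and the Tnc window held all of them but TGANTCA once each. Of 32851 mouse promoter windows of this length, 49.6% held CAGAC, 35.7% GGGCGG, 13.6% TATAAA and 7.81% TGANTCA, and a match describes only the letters present. Promoter windows were matched for 6 of the 10 genes.

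The 3 probe sets of Sparc did not give the same picture. Sparc 1416589_at read 6564, 6418 and 7556 in transgenic muscle, against 9249, 9499 and 8135 in wild type muscle. Every transgenic array lay below every wild type array, and replicate 3 of each genotype was the nearest to the other group. The means were 6846 ± 619.6 in transgenic and 8961 ± 726 in wild type muscle (SD, n = 3 each), a ratio of 0.764-fold with a 95% interval of 0.681 to 0.857. The probe set ranked 66 of 27022 by p-value and did not pass (limma, adjusted p = 0.115). Sparc 1448392_at, also among the brightest probe sets of the array, read 7627, 7666 and 8213 in transgenic against 8431, 7907 and 8276 in wild type muscle. These overlapped, with a fitted ratio of 0.955-fold (interval 0.882 to 1.03, adjusted p = 0.805). The dim Sparc 1458204_at read 39.2, 38.9 and 37.7 in transgenic against 50.2, 44.1 and 32.0 in wild type muscle, and its ratio of 0.948-fold had an adjusted p of 0.959.

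The call for Sparc 1416589_at depended on the arrays used. Its difference was -0.39 over all 6 arrays, -0.53 within round 1 and -0.11 within round 2, where each genotype has 1 array. It passed within round 1 alone (limma, adjusted p = 0.00946) and without transgenic replicate 3 (-0.46, adjusted p = 0.029), and not with the round as a term over all arrays (adjusted p = 0.114).

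**Figure D3:**
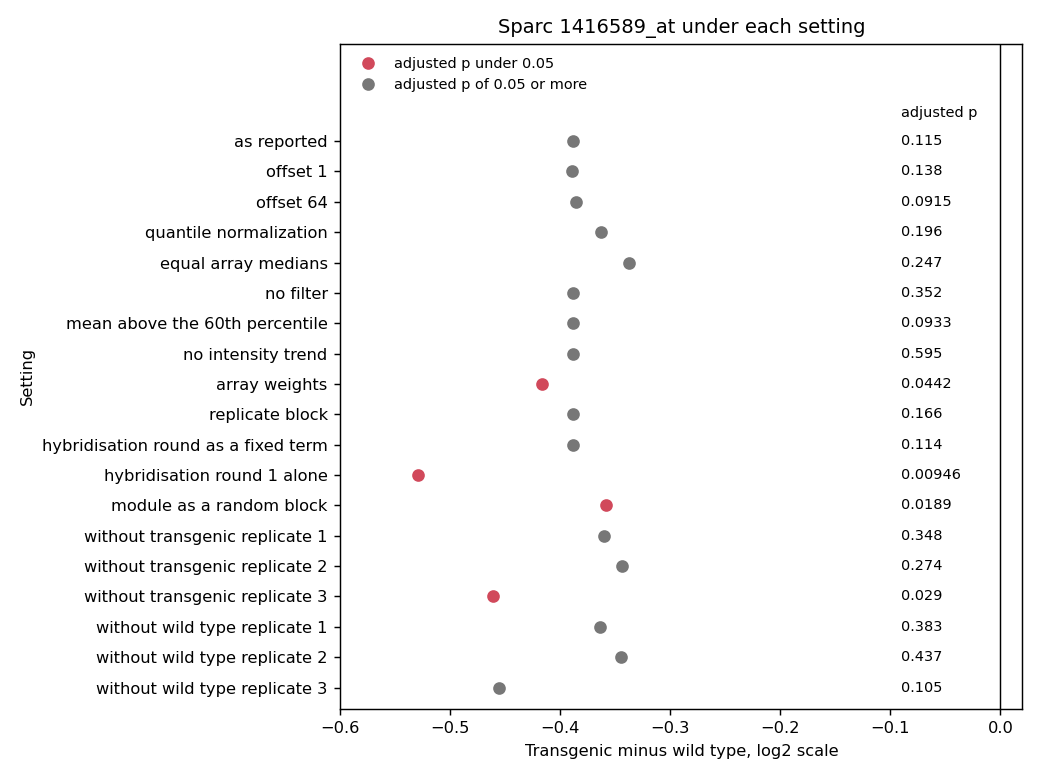
Fitted difference of Sparc 1416589_at, transgenic minus wild type on a log2 scale, as reported and under 18 other settings or without 1 array, with the adjusted p at the right; red marks an adjusted p under 0.05. All values are negative, from -0.53 to -0.34, and 4 of the 18 alternatives pass.

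Tenascin-C, a hexameric matricellular glycoprotein abundant at the muscle-tendon junction, was the member with the highest fitted ratio. Tnc 1416342_at read 185, 206 and 198 in transgenic muscle, against 147, 143 and 178 in wild type muscle. All transgenic arrays were above all wild type arrays, and wild type replicate 3 was close to the lowest transgenic array. The means were 196 ± 10.7 in transgenic and 156 ± 19.0 in wild type muscle (SD, n = 3 each), a ratio of 1.24-fold with an interval of 1.03 to 1.49 that did not pass (limma, adjusted p = 0.575). The difference was 0.39 within round 1 and 0.14 within round 2. A second probe set, Tnc 1456344_at, was under the filter, at 0.542 to 9.03 in transgenic and 1.03 to 5.55 in wild type muscle, and was not tested.

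Periostin, a fasciclin-domain protein that binds collagen and integrins, was bright and nearly equal between genotypes. Postn 1423606_at read 1673, 1810.4 and 1703 in transgenic against 1511, 1958 and 1642 in wild type muscle. The transgenic arrays fell inside the wild type range, at a ratio of 1.02-fold with an interval of 0.889 to 1.17 (limma, adjusted p = 0.964).

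The thrombospondins, multimeric calcium-binding glycoproteins, overlapped between genotypes as well. Thbs1, known as an activator of latent TGF-beta, was read by 2 probe sets, with 1 more left out because its annotation also names Pald1. Thbs1 1450377_at gave 75.6, 100.5 and 105.7 in transgenic against 88.2, 101.4 and 102.9 in wild type muscle (0.963-fold, adjusted p = 0.962). Thbs1 1460302_at gave 84.4, 63.6 and 74.6 in transgenic against 79.7, 96.0 and 92.4 in wild type muscle (0.854-fold, adjusted p = 0.783). In the second, 2 transgenic arrays were below all wild type arrays and 1 was inside their range. Thbs4, which is produced in tendon and muscle and acts at their attachment, read 1277, 1167 and 1818 in transgenic against 1306, 1225 and 1217 in wild type muscle. Transgenic replicate 3 was the highest of the 6 arrays, and the other transgenic arrays lay near or below the wild type arrays. The fitted ratio was 1.11-fold (interval 0.912 to 1.36, adjusted p = 0.817), and the difference of 0.16 became -0.03 without transgenic replicate 3.

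Elastin gave the most negative fitted difference of the group and also the most scattered transgenic arrays. Eln 1420855_at read 154, 192 and 313 in transgenic muscle, against 232, 328 and 319 in wild type muscle. Transgenic replicates 1 and 2 were below all wild type arrays, while replicate 3 lay inside their range. The means were 219.8 ± 82.8 in transgenic and 293 ± 53.3 in wild type muscle (SD, n = 3 each), a ratio of 0.742-fold with an interval of 0.537 to 1.02 (limma, adjusted p = 0.673). Eln 1420854_at read 65.6, 105 and 175 in transgenic against 95.7, 125 and 144 in wild type muscle. Transgenic replicate 1 was the lowest and replicate 3 the highest of all 6 arrays, and the ratio was 0.909-fold (interval 0.612 to 1.35, adjusted p = 0.936). Without transgenic replicate 3 the differences of the Eln probe sets were -0.70 and -0.45, and without transgenic replicate 1 they were -0.23 and 0.16, against -0.43 and -0.14 with all arrays.

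Lysyl oxidase, the copper enzyme that starts cross-linking of elastin and collagen, had its transgenic arrays in the same order as elastin. Lox 1416121_at read 363, 379 and 513 in transgenic against 457, 474 and 469 in wild type muscle. Transgenic replicates 1 and 2 were below the narrow wild type range and replicate 3 was above it. The ratio was 0.890-fold with an interval of 0.739 to 1.07 (limma, adjusted p = 0.789). Lox 1448228_at read 194, 201 and 308 in transgenic against 221, 294 and 234 in wild type muscle, with the same placing of replicate 3 and a ratio of 0.930-fold (adjusted p = 0.922). Without transgenic replicate 3 the differences were -0.32 and -0.31, against -0.17 and -0.11 with it, and neither passed. Lox 1437903_at was under the filter, at 11.9 to 21.5 in transgenic and 2.48 to 23.6 in wild type muscle.

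The fibulins, which bind elastin and basement membrane proteins, overlapped between genotypes. Fbln1 1451119_a_at read 189, 130.4 and 198 in transgenic against 220.0, 159 and 176 in wild type muscle (0.932-fold, adjusted p = 0.924). Fbln1 1422540_at read 69.7, 48.7 and 84.8 in transgenic against 74.6, 65.1 and 95.4 in wild type muscle (0.881-fold, adjusted p = 0.872). In both, transgenic replicate 2 was the lowest of the 6 arrays. Fbln2 1423407_a_at was among the steadiest probe sets of the group, at 291, 278 and 312 in transgenic against 302, 313 and 309 in wild type muscle (0.955-fold, interval 0.826 to 1.11, adjusted p = 0.911). Fbln1 1439688_at and Fbln2 1438375_at were under the filter, at 2.94 to 17.2 and 6.35 to 15.5 in transgenic and at 15.9 to 29.3 and 9.72 to 14.2 in wild type muscle.

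Transgenic replicate 3 was the highest transgenic array on 12 of the 17 member probe sets, or 70.6%, where it was so on 35.4% of all probe sets tested. It exceeded the mean of the other transgenic arrays by over 0.4 on the log2 scale on 6 of the 17, or 35.3%, against 8.81% of all tested. These were both Eln (0.81 and 0.94), both Lox (0.45 and 0.60), Thbs4 (0.57) and Fbln1 1422540_at (0.44). The median excess was 0.22 over the members and -0.00 over all tested, and the like value of wild type replicate 3, hybridised in the same round, was 0.01 over the members. On the 6 probe sets just named, however, the wild type replicate 3 values differed. They were 0.20 and 0.35 for Eln, 0.01 and -0.11 for Lox, -0.05 for Thbs4 and 0.38 for Fbln1 1422540_at. Markers of tendon and cartilage, all 10 of them above the filter, stood high on the same array. Their summed signal was 3896, 3447 and 5142 on the transgenic arrays, against 4266, 4264 and 3917 on the wild type arrays, and 12 of their 15 tested probe sets, several of them of Fmod, were highest of the transgenic arrays in replicate 3. The fibroblast markers, also 10 of 10 above the filter, summed to 33363, 33113 and 37146 in transgenic against 36858, 38477 and 36288 in wild type muscle. Transgenic replicate 3 was the highest transgenic array on 10 of their 16 tested probe sets (62.5%). In the mean of their log2 values it was the highest of all 6 arrays, at 11.10. Among the other marker lists, it was the highest transgenic array on 8 of 10 macrophage, 9 of 15 Schwann cell and nerve, and 9 of 16 smooth muscle and pericyte probe sets. It was so on 6 of 11 endothelial, 5 of 13 muscle fibre and 2 of 9 adipocyte ones, against 35.4% of all tested. Macrophage marker sums were 5000, 4743 and 5110 in transgenic against 5366, 5507 and 5180.2 in wild type muscle. Every transgenic array lay below every wild type array in this sum. In the mean of log2 values, transgenic replicate 3 (8.681) was above wild type replicate 3 (8.675). For Schwann cells and nerve the sums were 4687, 4637 and 5169 in transgenic against 4571, 4719 and 4965 in wild type muscle. For smooth muscle and pericytes they were 8449, 8233 and 9177 in transgenic against 8301, 8595 and 8193 in wild type muscle. An excess over 0.4 was reached by 66.7% of the tendon and cartilage probe sets, against 20% for macrophage, 13.3% for Schwann cell and nerve, 12.5% for fibroblast and 6.25% for smooth muscle and pericyte ones. The share was 0% for muscle fibre, endothelial and adipocyte probe sets. The part of any of these tissues in the members' levels was not tested. With all arrays 13 of 17 member differences were negative, with 14 of 17 and a median of -0.16 without transgenic replicate 3, 10 of 17 without transgenic replicate 1, and 15 of 17 within round 1. The direction was the same in both rounds for 7 of 17 members, or 41.2%, against 53% of all tested.

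**Figure D4:**
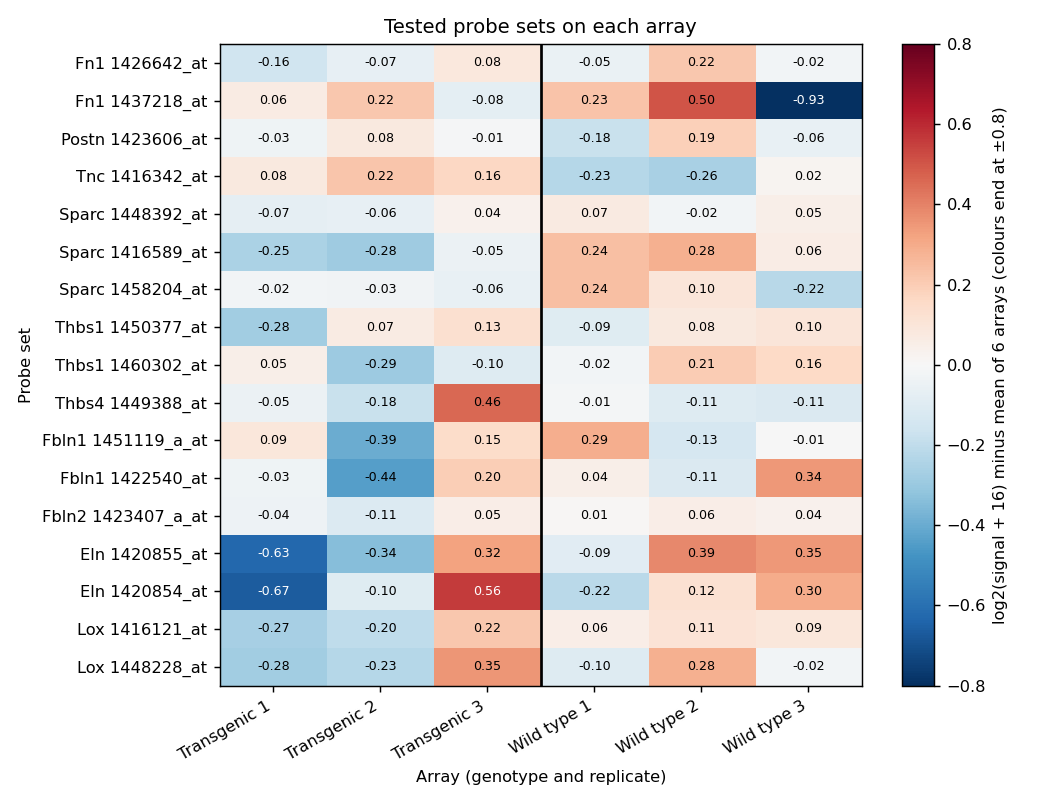
Each tested probe set (rows) on each array (columns, transgenic left and wild type right), as log2(signal + 16) minus the mean of the 6 arrays; red is above and blue below that mean, and colours end at 0.8. Thbs4, Eln and Lox are above their mean in transgenic replicate 3 and below it in transgenic replicates 1 and 2, while Sparc 1416589_at is below its mean on all 3 transgenic arrays.

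Over the 6 arrays Pearson's r between the Eln and the Lox probe sets was 0.809 to 0.928, while Thbs4, also highest in transgenic replicate 3, had r of 0.320 to 0.522 with Eln and 0.566 to 0.618 with Lox. High values were not particular to Eln and Lox. With their probe sets, Fbln2 1423407_a_at had r of 0.615 to 0.887 and Fn1 1426642_at 0.669 to 0.901, whereas Fn1 1437218_at had -0.352 to 0.071. These values describe the same 6 arrays, which share 1 scaling and 2 genotypes, and restate the order of arrays given above. Likeness was sought among 12522 tested probe sets with 1 gene symbol and a mean signal of at least 100, those of Sparc being passed over. The highest r of so many candidates over 6 arrays is high by selection. Those most like Sparc 1416589_at were of Actn4 (r = 0.981), Prkar2a (0.977), Limd1 (0.972), Acyp1 (0.970) and Mmrn2 (0.970). Those most like Sparc 1448392_at were of Col16a1 (0.984), Xpo5 (0.982), Suds3 (0.978), Qars (0.973) and Mettl17 (0.969).

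Genes that work with the members were read from the same fit, and no probe set of the 5 lists passed (limma, 0 of 99 tested at an adjusted p under 0.05, with 10 under an unadjusted p of 0.05, against 7.85% of all probe sets tested). Among elastic fibre and microfibril genes, 16 probe sets of 13 genes were tested. They comprised 4 positive and 12 negative differences (75% negative, against 52.6% of all tested) with a median of -0.07, against -0.01 over all tested. An unadjusted p under 0.05 was reached by 2 of 16, both higher in transgenic muscle, against 7.85% of all tested. Ltbp4, which binds latent TGF-beta and fibulin and aids elastic fibre assembly, read 423, 439.5 and 689.8 in transgenic against 381, 392 and 368 in wild type muscle. All transgenic arrays were above the wild type arrays, replicate 3 by far the most (1.31-fold, adjusted p = 0.567). Mfap4, a microfibril-associated protein, read 228, 146 and 269 in transgenic against 144, 174 and 135 in wild type muscle (1.35-fold, adjusted p = 0.619). Mfap2, another microfibril protein, read 224, 160.2 and 217 in transgenic against 226, 248 and 240.1 in wild type muscle by 1417359_at (0.845-fold, adjusted p = 0.706), and its other probe set had a difference of -0.05.

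The lysyl oxidase family beyond Lox gave 4 tested probe sets of 3 genes, 2 positive and 2 negative with a median of 0.03, and 0 under an unadjusted p of 0.05 in limma, against 7.85% of all tested, and 0 under an adjusted one. Loxl1, which cross-links elastin, read 486, 507 and 834 in transgenic against 572, 654 and 603 in wild type muscle, so that replicate 3 was again the highest of 6 arrays (0.971-fold, adjusted p = 0.973). Loxl3 1418269_at and Loxl4 1421153_at had ratios of 1.08-fold and 0.793-fold with adjusted p of 0.914 and 0.827, while the second tested Loxl4 probe set, 1450134_at, had a ratio of 1.23-fold (adjusted p = 0.853).

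Other matricellular genes gave 26 tested probe sets of 15 genes, 10 positive and 16 negative (61.5% negative, against 52.6% of all tested), with a median of -0.05. An unadjusted p under 0.05 was reached by 2 of 26, both lower in transgenic muscle, a share close to the 7.85% of all tested. Ccn1 1442340_x_at, of the gene for an integrin-binding CCN protein, read 44.6, 26.5 and 43.9 in transgenic against 63.4, 72.9 and 63.0 in wild type muscle (0.652-fold, adjusted p = 0.45). The 3 other tested Ccn1 probe sets had differences of 0.06, 0.10 and -0.15. Only the last, 1457823_at, had the same direction, with an interval of -0.51 to 0.21. Spock3 1459834_x_at, of a gene related to Sparc, read 40.6, 41.4 and 37.2 in transgenic against 63.4, 72.7 and 54.6 in wild type muscle (0.703-fold, adjusted p = 0.526). The other Spock3 probe set, 1449979_a_at, was under the filter and ran the opposite way, at 12.8 to 22.6 in transgenic and 0.584 to 12.3 in wild type muscle. Ccn2, the connective tissue growth factor gene, read 471, 423 and 451 in transgenic against 446, 358 and 335 in wild type muscle (1.18-fold, adjusted p = 0.648).

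Receptors of fibronectin and of matricellular proteins gave 28 tested probe sets of 12 genes, 9 positive and 19 negative (67.9% negative, against 52.6% of all tested), with a median of -0.13. An unadjusted p under 0.05 was reached by 4 of 28, all lower in transgenic muscle, against 7.85% of all tested. Itga4 1456498_at, of the integrin alpha4 subunit that binds fibronectin, read 35.7, 95.8 and 43.2 in transgenic against 137, 149 and 129 in wild type muscle. All transgenic arrays were below the wild type arrays, at 0.453-fold (adjusted p = 0.181), and replicate 2 was the nearest to them. Without transgenic replicate 2 this probe set passed (-1.48, adjusted p = 0.012). The other tested Itga4 probe sets had differences of -0.35 and -0.37. Itgb1 1452545_a_at, of the beta1 subunit that pairs with alpha7 and with fibronectin-binding alpha subunits, read 806, 772 and 860.2 in transgenic against 999.5, 989 and 1013 in wild type muscle (0.814-fold, adjusted p = 0.274). The groups did not overlap, and a second bright probe set, Itgb1 1426918_at, had a difference of -0.24 with an adjusted p of 0.607. Cd36, a scavenger receptor that also binds thrombospondin, read 1952, 1658 and 2063 in transgenic against 2448, 2060.5 and 2441 in wild type muscle by 1423166_at (0.817-fold, adjusted p = 0.428), and its other probe sets each had a difference of -0.11.

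TGF-beta signalling genes, whose pathway induces several of these matrix genes, gave 25 tested probe sets of 11 genes, 11 positive and 14 negative (56% negative, against 52.6% of all tested), with a median of -0.04. An unadjusted p under 0.05 was reached by 2 of 25, both lower in transgenic muscle, a share close to the 7.85% of all tested. Smad3 1454960_at, of the receptor-activated SMAD of this pathway, read 686, 646 and 701 in transgenic against 849, 793 and 813 in wild type muscle (0.831-fold, adjusted p = 0.361). The other Smad3 probe sets had differences of -0.06 and -0.04. Smad4 1422485_at, of the shared partner SMAD, read 675, 706 and 496 in transgenic against 919, 713 and 749 in wild type muscle (0.788-fold, adjusted p = 0.562). Its other probe sets had differences of 0.04 and -0.05. Tgfb2 1450922_a_at, of the ligand, read 136, 128 and 161 in transgenic against 191, 165 and 167 in wild type muscle (0.829-fold, adjusted p = 0.657). Its other tested probe sets had differences of -0.07 (1423250_a_at, the brightest), -0.27 and -0.27.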

How the data were processed

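RNA of 6 muscle pools was read on Affymetrix Mouse430_2 arrays. The authors deposited 1 linear intensity (signal) per probe set and array, made with GCOS 1.1.1, as the submitters' processing notes say; the sources used here do not give the signal algorithm or its target value. Control rows (64) were set aside. Of 45037 probe sets, 34945 carried 1 gene symbol, 932 several and 9160 none in the platform annotation; only those with 1 symbol were named. Values were taken as log2(signal + 16). Probe sets with a mean log2 value above the 40th percentile were kept (27022) and fitted in limma 3.58.1 (R 4.3.3) with an intensity trend, genotype as the only term, two-sided tests and Benjamini-Hochberg adjustment across the kept probe sets; a call is an adjusted p under 0.05. The code was tested on simulated data. Every probe set of the 10 genes is reported, with Itga7, the 3 smallest p-values of each related list (with other probe sets of those genes added after their values were seen) and the 5 probe sets most like 2 Sparc probe sets. Correlations are given for Eln, Lox, Thbs4, Fbln2 and Fn1, picked after their values were seen. The members and lists were chosen with earlier results of these data known. Alternatives changed the offset, scaling, filter, trend, array weights, blocks and arrays used. Pools are the replicates, and 3 per group limit the precision; the arrays give no counts. Hybridisation rounds and fluidics modules are as the arrays' experiment records name them. Figures were drawn with matplotlib 3.10.9 in Python 3.11.15.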

Additional observations from a re-analysis of the deposited data

How the results depend on the processing

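Over the whole array 33 probe sets passed, against 50 with equal array medians, 17 with no filter, 1 without the intensity trend, 297 with fluidics modules as random blocks (no module held both genotypes; estimated correlation -0.44) and 18 to 39 with 1 array left out. Of the members, 0 passed as reported, and Sparc 1416589_at alone passed with array weights, within round 1, with the module block (1 each) and without transgenic replicate 3 (0 to 1 with 1 array left out). Its adjusted p ran from 0.00946 to 0.595 over 18 alternatives and its difference from -0.53 to -0.34. Of the related lists, 0 passed as reported, 2 with the module block (Itgb1 1452545_a_at and Itga4 1456498_at, adjusted p = 0.0434 and 0.0246) and 0 to 1 with 1 array left out (Itga4, without transgenic replicate 2, adjusted p = 0.012). The causes were not tested. Differences that turned sign were all uncalled: within round 1, Fn1 1437218_at was -0.22 and Thbs4 was -0.051. With 1 array left out, the ranges were -0.30 to 0.42 for Fn1 1437218_at, -0.053 to 0.13 for Postn, -0.21 to 0.024 for Sparc 1458204_at, -0.13 to 0.071 for Thbs1 1450377_at, -0.033 to 0.28 for Thbs4, -0.20 to 0.070 for Fbln1 1451119_a_at, -0.45 to 0.16 for Eln 1420854_at and -0.31 to 0.0098 for Lox 1448228_at. In all, 287 of 304 member values kept direction and side of the threshold. Replicate numbers were not used to pair the arrays in the reported fit. Correlations of deviations between genotypes were 0.003, 0.060 and 0.049 for same-numbered arrays, against -0.078 to 0.024 for differently numbered ones. Replicate 3 of each genotype also shared a hybridisation round. With the replicate number as a block, limma gave 36 calls over the array and 0 among members, with Sparc 1416589_at at an adjusted p of 0.166. The median of all probe sets was -0.01 as deposited, 0.00 after quantile normalization and 0.04 with equal medians. The 4 probe sets under the filter had no test. The median 95% half-width of the members was 0.35 on the log2 scale, which limits what 3 pools a genotype can show.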

Other observations

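The following genes were chosen after their values were seen. Col1a1 1423669_at, of the main fibrillar collagen chain, read 3047, 2924 and 5059 in transgenic against 3297, 3664 and 3510 in wild type muscle, whereas Col1a1 1455494_at read 922, 875 and 814 in transgenic against 1011, 1289 and 976 in wild type muscle. Tnmd, which encodes the tendon protein tenomodulin, read 1071, 971 and 1405 in transgenic against 1166, 1216 and 1257 in wild type muscle. Chad, which encodes the cartilage protein chondroadherin, read 348, 254 and 490.3 in transgenic against 329, 367 and 316 in wild type muscle.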
